A study of Mus musculus with 4 samples.

Results

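The fructose response of hepatocytes without ChREBP was described gene by gene, as the log2 level on the fructose array minus that on the control array of knockout cells. The value was taken for all 22180 named genes of the table. Of these, 10752 lay above the background level on at least 1 of both knockout arrays and are called detected. The background level, 4.764 on the log2 scale, is the 95th percentile of 1105 olfactory receptor genes, which are taken as silent in liver. The cells were primary hepatocytes of 2-month-old male mice, either wild type (WT) or Chrebp knockout (KO). Cells of both genotypes spent 16 h in serum-free medium, either with 25 mM fructose or, as the control, without added fructose. Each of the 4 groups was measured on 1 array, so 2 of the 4 arrays make up the knockout response and no difference has a replicate check. Sizes and ranks are therefore given without a test, and a fold against an array below the background level is written as "at least", against that level. The labels do not give the deleted stretch of the gene, the number of mice behind a culture, or whether animals were pooled.

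ChREBP, encoded by Mlxipl, is a transcription factor that senses sugar phosphates and, with its partner MLX, switches on genes of glycolysis, fructose breakdown and fat synthesis. Hepatocytes take up fructose through sugar transporters and phosphorylate it rapidly with ketohexokinase, outside the main control points of glycolysis. As secretory cells they also carry a large endoplasmic reticulum (ER). When unfolded proteins accumulate there, the unfolded protein response raises chaperones and degradation factors, and the linked integrated stress response slows protein synthesis while raising the transcription factors ATF4 and CHOP.

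Mlxipl itself read 7.42 on the KO control array and 7.37 on the KO fructose array, against 8.08 and 8.43 on the WT arrays (log2 levels). Its probe set thus stayed above background in KO, and whether it lies in the deleted stretch is not known. All 7 measured hepatocyte markers were above background on both KO arrays, among them Alb (12.63 in control, 12.66 in fructose), Ttr (12.28 and 12.42) and Hnf4a (9.43 and 8.93). Of 11 Kupffer cell or macrophage markers, 8 were above background on both KO arrays, and their summed linear level was 2670 in control and 2786 in fructose. Without Cd68, which carried most of that sum, it was 439 and 396. Sinusoidal endothelial markers were above background in 6 of 8 cases and summed to 596 and 575. Among the markers of stellate cells 2 of 7, of cholangiocytes 1 of 6 and of lymphocytes or neutrophils 1 of 7 were above background on both arrays. In such bulk cultures, fewer cells of a type and less RNA per cell cannot be told apart.

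Among the detected genes, 181 (1.68%) were at least 2-fold higher with fructose in KO and 127 (1.18%) at least 2-fold lower. At 3-fold, 47 (0.437%) were higher and 18 (0.167%) lower. The median difference was -0.00 on the log2 scale, and the 5th and the 95th percentile were -0.61 and 0.65. Of the 1105 olfactory receptor genes, 0 differed 2-fold, and the same percentiles were -0.27 and 0.27, which describes how far probe sets near background moved between these 2 arrays. The 2-fold calls were spread over the range of expression. In 4 bins of 2688 detected genes each, from the dimmest to the brightest, 26, 47, 59 and 49 were higher and 20, 49, 34 and 24 lower. Of the 181 higher genes, 21 were below background on 1 of both arrays, as were 16 of the 127 lower genes. Counts at 2-fold and 1.5-fold use the difference as read, and against the background level 10 of the higher and 12 of the lower genes have a bound under 2-fold.

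The genes furthest up in KO joined ER quality control, stress regulators, inflammatory genes and a few genes better known from other epithelia. Derl3, an ER protein that helps pull misfolded proteins out for degradation, was below background in control (3.99) and read 9.16 with fructose, at least 21.1-fold higher. Il1f9, a cytokine of the IL-1 family better known from skin, went from 4.77 to 8.42, and Muc13, a transmembrane mucin of intestinal epithelium, from 4.90 to 8.46. Nos2, the inducible nitric oxide synthase, was below background in control (4.39) and read 7.84 with fructose, at least 8.45-fold higher. Adm, which encodes the vasodilator peptide adrenomedullin, read 6.86 and 9.53, and Cyp2b10, a drug-metabolising P450, read 7.84 and 10.20. E2f8, a repressor of the E2F family that acts in liver polyploidy, went from below background (3.74) to 6.34. Krtap4-16, a hair keratin-associated protein gene of a family with similar copies, read 4.96 and 7.10 in KO but 5.12 and 5.37 in WT. Of the 15 genes highest in KO, it had the smallest WT difference (0.25).

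The genes furthest down were of many kinds, among them adhesion and cytoskeletal genes and the interferon-stimulated gene Ifi27l2b (10.10 and 8.42). Cdh17, the liver-intestine cadherin, went from 8.16 to 5.29, and Vil1, the microvillus protein villin, from 7.03 to 4.94. Ankrd23, a muscle-type ankyrin repeat gene, read 9.10 and 6.63, and Spon2, a secreted matrix protein of innate immunity, read 8.25 and 5.97. Hjv, the co-receptor hemojuvelin that promotes hepcidin expression, read 7.68 and 5.66. Csn3, which encodes the milk protein kappa-casein, read 7.75 in control and differed by -1.75. Xrcc5, the Ku80 subunit of the DNA end-joining complex, read 7.73 and 6.13, and Adgrg1, an adhesion receptor, read 7.03 and 5.42. All 15 lowest genes were above background on both KO arrays, and all 15 were also lower with fructose in WT.

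**Figure D1:**
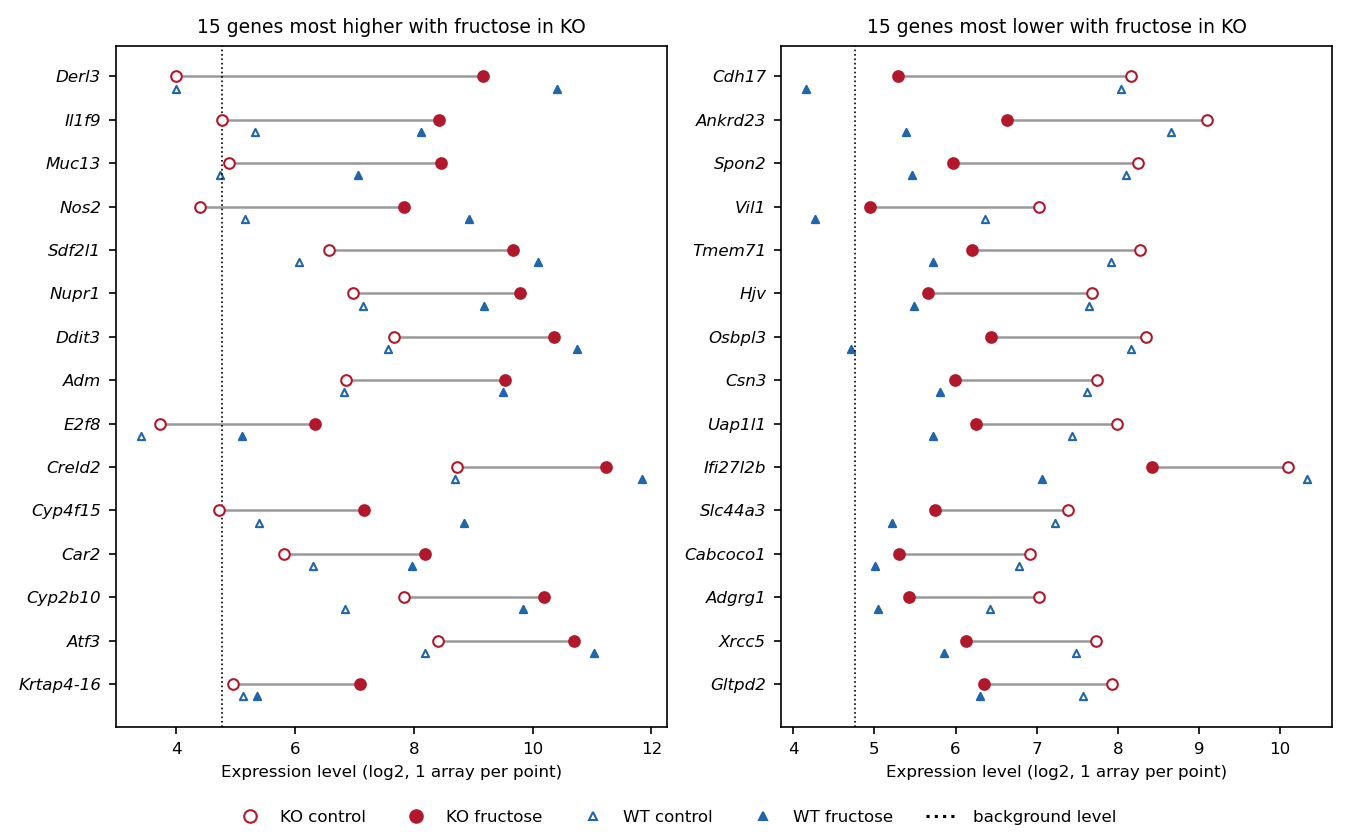
Expression level (log2 scale on the horizontal axis, 1 array per point) of the 15 genes most higher and the 15 most lower with fructose in KO hepatocytes; circles are KO, triangles WT, open symbols control, filled symbols fructose, and the dotted line is the background level of 4.764. Derl3, Nos2, E2f8 and Cyp4f15 start below the background in KO control, and Krtap4-16 is the gene whose 2 WT symbols lie closest together.

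The gene lists used from here on were chosen with earlier results of these data known, so their counts and medians are descriptions. The protein folding machinery of the ER lumen was higher as a group. Of 20 detected chaperones and co-chaperones, 16 were above 0, 7 were at least 2-fold higher (1.68% of all detected genes) and 1 was 2-fold lower, with a median difference of 0.75 against -0.00 over all detected genes. Hspa5, the central chaperone BiP, read 9.55 in KO control and 10.61 in KO fructose, a 2.09-fold difference. Hsp90b1, the HSP90 of the ER, read 10.74 and 12.13, 2.62-fold higher. Dnajb9, a J-domain co-chaperone of BiP, went from 9.06 to 11.06, and Hyou1, its nucleotide exchange factor, from 8.53 to 10.40. Sdf2l1, a partner of ER chaperone complexes, read 6.58 and 9.67, and Creld2, a protein induced by ER stress, read 8.73 and 11.24. Fkbp11, a prolyl isomerase of secretory cells, was 2.30-fold higher. The exception was Cnpy2, a saposin-like ER protein, which read 8.95 and 7.75 and was 2.30-fold lower. The lectin chaperone pair did not move alike. Calr, calreticulin, read 11.03 and 11.77, whereas Canx, the membrane-bound calnexin, read 11.09 and 11.17. In WT the median of the list was 1.22, and 19 of the 20 genes had the smaller difference in KO. That comparison of both genotypes was not tested, as for every pair of values set side by side here.

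Genes of disulfide bond formation differed less than the chaperones. Of 18 detected isomerases and oxidases, 2 were 2-fold higher and 5 were 1.5-fold higher (6.11% of all detected genes reached 1.5-fold higher), with a median of 0.22. Both 2-fold members were the oxidases that recharge protein disulfide isomerase. Ero1b read 6.43 and 7.96, 2.89-fold higher, and Ero1a read 7.71 and 8.77, 2.07-fold higher. Among the isomerases Pdia6 read 9.74 and 10.73, just below 2-fold, and P4hb, the classical PDI, read 10.55 and 11.32. Tmx2 went the other way, from 8.16 to 7.44.

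The degradation branch, which returns misfolded proteins to the cytosol for the proteasome, had 6 of 25 detected genes 2-fold higher and 0 lower, with a median of 0.32. Beside Derl3 and Sdf2l1 these were parts of one complex and its helpers. Syvn1, the ubiquitin ligase HRD1, read 8.51 and 9.83, 2.49-fold higher. Its partner Sel1l read 8.13 and 9.32, 2.28-fold higher, and Herpud1, which gathers the complex, read 9.11 and 10.66, 2.93-fold higher. Edem3, a mannose-trimming enzyme that marks glycoproteins for disposal, was 2.08-fold higher. Sel1l differed by 1.19 in KO and 2.33 in WT.

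Protein entry into the ER and exit by COPII vesicles moved by small steps shared by most members. Of 46 detected genes 40 were above 0, yet 2 reached 2-fold, and the median was 0.32. Kdelr3, a receptor that returns escaped chaperones, was at background in control (4.76) and read 6.29 with fructose, at least 2.88-fold higher, while Kdelr2 read 10.28 and 10.96. Sec24d, a cargo adaptor of the COPII coat, read 7.99 and 9.17, 2.26-fold higher. Both subunits of the signal recognition particle receptor, Srpr (10.74 and 11.42) and Srprb (8.29 and 8.98), were 1.60-fold and 1.61-fold higher.

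Sensors and transcription factors of the unfolded protein response were also listed. Of 13 detected members, 0 differed 2-fold in KO (2.86% of all detected genes did) and the median was 0.10. Ern1, which encodes the sensor IRE1 alpha, read 7.53 and 8.15, and Atf6, the sensor cleaved in the Golgi, read 9.38 and 9.90. Wfs1, the ER membrane protein wolframin, differed by 0.68 in KO and 2.11 in WT. Bhlha15, the secretory-cell factor MIST1, was 1.48-fold higher in KO and at least 2.91-fold higher in WT, from a control below background. Creb3l3, a liver ER-bound factor, differed by 0.31 in KO and 1.34 in WT. Of this list, 5 members reached 2-fold in WT.

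Promoter sequences were examined because these genes moved together and because the ER stress response element (ERSE) is a textbook control sequence of chaperone genes. The element, a long motif named only and not spelled out here, was searched on both strands of the 250 bases before each gene start, in RefSeq promoters of the GRCm38.p6 build. It was found in 37 of 32851 promoters (0.113%) and in 17 of the 8500 detected genes with a promoter in the table (0.2%). Among ER lumen chaperones 6 of 17 held it (35.3%), as did 2 of 17 isomerases and oxidases and 2 of 20 degradation genes. Of the 2-fold higher genes 6 of 138 held it (4.35%), and of the 2-fold lower genes 0 of 93. The 17 detected genes with the motif had a median difference of 0.74 in KO, 16 of them were above 0 and 6 were 2-fold higher. The 6 are shown first, then Canx, which holds the motif and stayed at 0.08. Capitals mark the motif on either strand, Hsp90b1 holds it at 2 places, and each sequence reads along the strand of its gene.
Derl3: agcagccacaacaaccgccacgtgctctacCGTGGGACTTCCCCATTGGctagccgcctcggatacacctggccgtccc
Creld2: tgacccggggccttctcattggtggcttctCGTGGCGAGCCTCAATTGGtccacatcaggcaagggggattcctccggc
Ero1b: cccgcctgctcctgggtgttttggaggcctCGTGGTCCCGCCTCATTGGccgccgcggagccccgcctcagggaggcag
Hsp90b1: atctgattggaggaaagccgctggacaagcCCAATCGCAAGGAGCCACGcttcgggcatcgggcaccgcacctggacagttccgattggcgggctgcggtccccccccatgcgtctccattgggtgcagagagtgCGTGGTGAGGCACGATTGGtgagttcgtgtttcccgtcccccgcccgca
Syvn1: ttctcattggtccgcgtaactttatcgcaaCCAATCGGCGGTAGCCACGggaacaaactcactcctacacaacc
Hspa5: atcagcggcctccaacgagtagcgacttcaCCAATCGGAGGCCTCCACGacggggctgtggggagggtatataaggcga
Canx: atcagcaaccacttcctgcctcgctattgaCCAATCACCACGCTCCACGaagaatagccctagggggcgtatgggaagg
The sequences lie at chr10:75893212-75893290 (Derl3, + strand), chr15:88819490-88819568 (Creld2, +), chr13:12565652-12565730 (Ero1b, +), chr10:86705503-86705686 (Hsp90b1, - strand), chr19:6046502-6046575 (Syvn1, +), chr2:34771995-34772073 (Hspa5, +) and chr11:50325770-50325848 (Canx, -), all upstream of the annotated start. A match is a description of these letters and not a shown binding site.

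**Figure D2:**
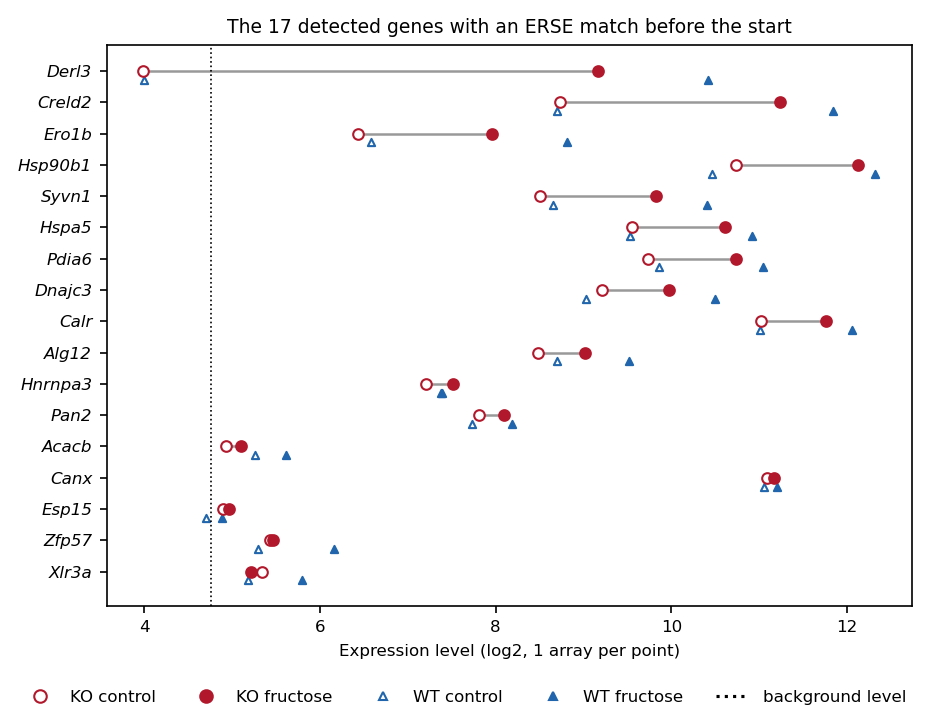
Expression level (log2 scale, 1 array per point) of the 17 detected genes whose 250 bases before the start hold an ERSE match, ordered by the KO difference, with symbols and the dotted background line as in the plot of single genes. The fructose circle lies to the right of the control circle for 16 of the 17 genes, the exception being Xlr3a, and the 6 genes from Derl3 to Hspa5 are at least 2-fold higher.

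A related shorter element, ERSE-II, searched in the same way, occurred in 10 promoters (0.0304%) and in 7 detected genes, of which Herpud1 was the one at 2-fold. Herpud1 is shown because it is part of the same degradation complex and lacks the longer element. It lies at chr8:94386347-94386417 on the + strand, with the motif in capitals.
Herpud1: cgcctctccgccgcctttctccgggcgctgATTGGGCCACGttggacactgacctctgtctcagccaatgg

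Factors of the integrated stress response were higher in KO. Of 24 detected factors, 5 were 2-fold higher (1.68% of all detected genes) and 11 were 1.5-fold higher (6.11%). At either size 0 were lower, and the median was 0.53. Ddit3, which encodes the pro-death factor CHOP, read 7.66 in control and 10.36 with fructose, 6.48-fold higher. Atf3, a stress-induced repressor, read 8.42 and 10.70. Ppp1r15a, the GADD34 subunit that reverses the translation block, read 6.96 and 8.35, and Chac1, a glutathione-degrading enzyme, read 6.84 and 7.97. Nupr1, a small stress-induced chromatin protein, read 6.97 and 9.78. It differed more in KO (2.81) than in WT (2.04), as did Ddit4 (0.95 and 0.64), an inhibitor of mTORC1. Ddit3 (2.70 in KO and 3.19 in WT), Atf3 (2.29 and 2.85), Ppp1r15a (1.39 and 2.11) and Chac1 (1.13 and 2.21) differed less in KO. Of the 24 factors, 14 had the smaller difference in KO, 7 were 2-fold higher in WT and the WT median was 0.42. Atf4 read 8.80 and 9.57, 1.71-fold higher. The metabolic genes controlled by ATF4 moved less. Among 19 detected genes of amino acid synthesis and import 1 was higher as read and 1 lower at 2-fold, with a median of 0.31. The higher one, Aldh1l2, rests on a control below background and is bounded only at 1.82-fold. The lower one, Gpt2, the mitochondrial alanine transaminase, read 9.75 and 8.62. The 18 cytosolic tRNA synthetases had a median of 0.01 and 0 at 2-fold.

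The CEBP-ATF response element (CARE), searched as TGATGNAA on both strands, was found in 3.45% of all promoters and in 226 of the 8500 detected genes (2.66%). Those 226 genes had a median difference of -0.00 in KO, the same as all genes with a window. Of the 2-fold higher genes with a promoter 6 of 138 held the CARE (4.35%), and of the 2-fold lower genes 2 of 93 (2.15%). In the integrated stress list 5 of 19 genes with a promoter held it (26.3%), and 4 of them are shown as examples. They lie at chr7:126625543-126625610 (Nupr1, -), chr1:191183406-191183473 (Atf3, -), chr2:119351019-119351086 (Chac1, +) and chr7:45615592-45615659 (Fgf21, -), with the motif in capitals.
Nupr1: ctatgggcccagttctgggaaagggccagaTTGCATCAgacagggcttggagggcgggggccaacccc
Atf3: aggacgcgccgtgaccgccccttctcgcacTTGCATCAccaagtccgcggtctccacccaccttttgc
Chac1: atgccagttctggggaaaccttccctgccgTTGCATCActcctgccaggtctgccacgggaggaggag
Fgf21: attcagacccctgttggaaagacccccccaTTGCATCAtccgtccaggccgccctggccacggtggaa
Fgf21, a fasting and stress hormone that is also a ChREBP target, read 4.96 and 5.78 in KO, a difference of 0.82, against 4.32 in WT. The other 3 genes differed by 2.81, 2.29 and 1.13 in KO.

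Hypoxia-type genes were higher on balance. Of 23 measured members 20 were detected. Their differences ranged from 0.00 to 2.67, 6 were 2-fold higher and 11 were 1.5-fold higher, with a median of 0.64 in KO and 0.42 in WT. Unlike the ER chaperones, the hypoxia genes had the smaller difference in KO in 7 of 20 cases. Egln3, an oxygen-sensing prolyl hydroxylase, read 8.34 and 10.21, 3.67-fold higher. Pfkfb3, which makes the activator of phosphofructokinase, read 4.91 and 6.50, 3.02-fold higher. Vegfa, the angiogenic growth factor, read 8.82 and 10.18, and P4ha1, a collagen prolyl hydroxylase, read 5.75 and 7.01. Slc2a1, the glucose transporter GLUT1, read 7.47 and 8.20. Of the list, Ero1a also belongs to the oxidases above and Ddit4 and Ndrg1 to the integrated stress genes. Other stress lists stayed near 0. The median was -0.00 over 21 NRF2-type antioxidant genes, where Hmox1, heme oxygenase, was 2.63-fold higher (9.24 and 10.64) and the exporter Abcc4 was 2.02-fold lower. It was 0.08 over 16 heat shock proteins, with 0 at 2-fold.

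**Figure D3:**
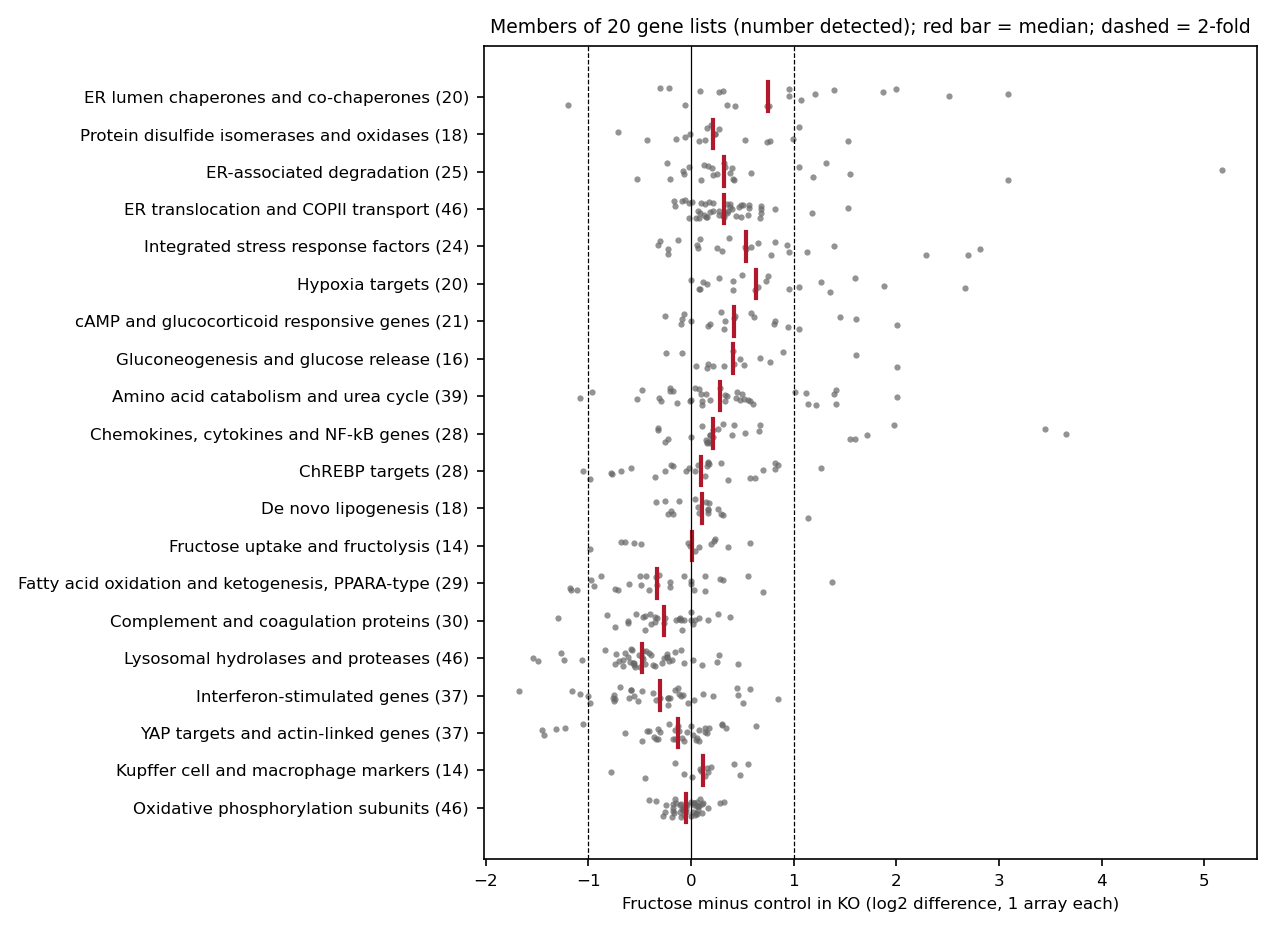
Fructose minus control difference in KO (log2, 1 array each side) of every detected member of 20 gene lists; each grey point is 1 gene, the red bar is the median, the dashed lines mark 2-fold and the number of detected members is in brackets. ER chaperones (median 0.75), hypoxia targets (0.64) and integrated stress factors (0.53) lie to the right, lysosomal enzymes (-0.47) to the left, and oxidative phosphorylation subunits gather around 0.

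The textbook targets of ChREBP split in both directions. Of 28 detected members, 1 was 2-fold higher and 1 was 2-fold lower, 6 were 1.5-fold higher and 6 were 1.5-fold lower (5.75% of all detected genes reached 1.5-fold lower), and the median was 0.10. In WT the median was 0.84, 14 were 2-fold higher and 1 was lower, and 22 of the 28 had the smaller difference in KO. Those higher in KO were mostly regulators. Txnip, an arrestin that restrains glucose uptake, read 7.04 and 8.30, and its relative Arrdc4 read 7.13 and 7.82. Rgs16, a brake on G-protein signals, read 5.77 and 6.62, with a difference of 0.85 in KO and 3.14 in WT. Angptl8, an insulin-responsive inhibitor of lipoprotein lipase, read 8.18 and 8.99, with 0.81 in KO and 2.53 in WT. Those lower in KO were mostly enzymes and transport proteins. Pklr, the liver pyruvate kinase, read 10.44 and 9.39 and was 2.07-fold lower, against a WT difference of -0.32. Gpd1, the cytosolic glycerol phosphate dehydrogenase, read 7.31 and 6.54, and Mttp, which loads lipid onto VLDL, read 8.85 and 8.08. Gpam, the first acyltransferase of triglyceride synthesis, read 9.75 and 9.16 in KO and was lower by more in WT (-1.11).

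**Figure D4:**
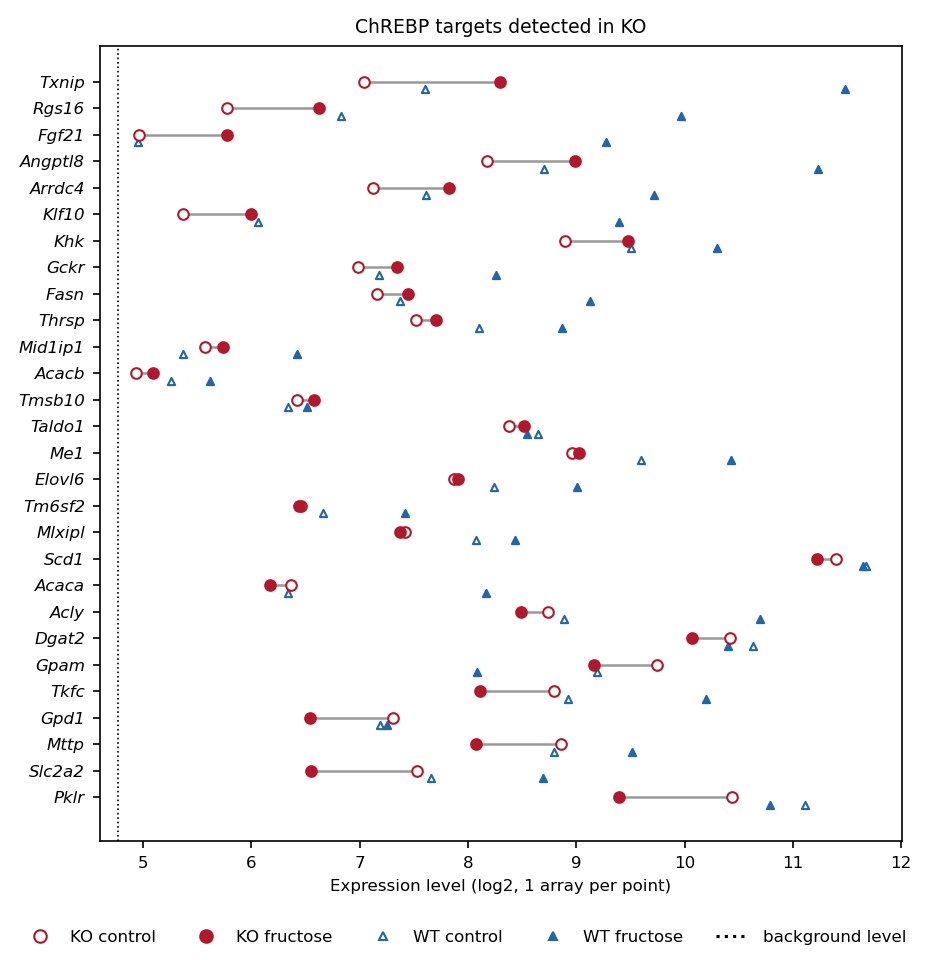
Expression level (log2 scale, 1 array per point) of the 28 ChREBP target genes detected in KO, ordered by the KO difference, with circles for KO, triangles for WT, open symbols for control and filled symbols for fructose. For Txnip, Rgs16, Fgf21, Angptl8, Arrdc4 and Klf10 both fructose symbols lie to the right of their controls and the WT pair is further apart, while for Tkfc, Mttp and Slc2a2 the KO pair and the WT pair point in opposite directions.

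Genes of fructose handling lay on both sides of 0. Of 14 detected genes of uptake and fructolysis, 7 were above 0 and 7 below, 0 differed 2-fold, 3 were 1.5-fold lower and the median was 0.01. Khk, ketohexokinase, which starts fructolysis, read 8.90 and 9.47, a difference of 0.58 in KO and 0.80 in WT. Slc2a2, the transporter GLUT2, read 7.53 and 6.55, and Tkfc, the triokinase that phosphorylates glyceraldehyde, read 8.80 and 8.11. The third gene at 1.5-fold lower was Glyctk, a glycerate kinase, which read 7.44 and 6.80. Lipogenesis stood near 0 with a median of 0.11 over 18 genes, against 0.77 in WT, where 5 were 2-fold higher. The single 2-fold member in KO was Elovl2, which elongates polyunsaturated fatty acids and is not a classical step of sugar-driven fat synthesis (9.28 and 10.42). It differed by 1.14 in KO and 0.91 in WT. Srebf1, the SREBP1 gene, differed by 0.26 in KO and 1.02 in WT.

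Other carbohydrate genes were mixed. Gys2, the liver glycogen synthase, read 6.85 and 8.51, 3.16-fold higher, while the 15 glycogen genes as a list had a median of 0.01. Among 20 glycolytic genes Pfkfb3 was higher and Pklr lower at 2-fold, and the median was 0.17. The gluconeogenic list had a median of 0.41 over 16 genes, with 2 at 2-fold. These were Pck1, the cytosolic PEP carboxykinase, which read 5.80 and 7.40 and differed by 1.61 in KO and 0.93 in WT, and Tat, tyrosine aminotransferase, which read 9.88 and 11.89. Fbp1, fructose bisphosphatase, was 1.60-fold higher. The 10 pentose phosphate and NADPH genes had a median of -0.01.

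In lipid storage, Cidec, a lipid droplet fusion protein, read 5.92 and 7.88 and was 3.88-fold higher, the 1 member at 2-fold among 33 genes of triglyceride, droplet and VLDL metabolism. Insig1, the sterol-responsive anchor of SREBP, was 2.27-fold higher (8.60 and 9.78). Dhcr7, the last enzyme of cholesterol synthesis, was 2.22-fold lower (8.62 and 7.46), and the median over 26 cholesterol genes was 0.07. Fatty acid oxidation and ketogenesis were lower on balance, with a median of -0.33 over 29 genes, 3 at 2-fold lower, 9 at 1.5-fold lower and 1 at 2-fold higher. The 3 at 2-fold lower were Aldh3a2 (7.21 and 6.03), Vnn1 (8.82 and 7.65) and Cpt1a, which admits fatty acids to mitochondria (9.01 and 7.89). Short of 2-fold, Cpt2 read 8.18 and 7.57. Cd36, a fatty acid transporter, read 7.65 and 6.68, and Acat1, the mitochondrial thiolase of ketone metabolism, read 8.36 and 7.49. Fabp1, the liver fatty acid binding protein, stood opposite at 2.58-fold higher (8.95 and 10.32).

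Amino acid catabolism held 8 of 39 genes at 2-fold higher and 1 lower, with a median of 0.28. Oat, ornithine aminotransferase, read 7.21 and 8.62, 2.67-fold higher, and Hpd, an enzyme of tyrosine breakdown, read 10.08 and 11.22. Arg1, the urea cycle arginase, read 7.37 and 8.49, with a difference of 1.12 in KO and 0.82 in WT. Of the 39 genes, however, 27 had the smaller difference in KO, and the WT median was 0.39. Cdo1, which oxidises cysteine, read 10.13 and 11.14. Kynu, kynureninase, was the 2-fold lower member (7.25 and 6.16). Bile acid synthesis and transport held 4 of 25 genes at 2-fold higher and 1 lower, the exporter Abcc4, with 3 at 1.5-fold lower and a median of 0.08. Slco1b2, a sinusoidal organic anion carrier, read 6.13 and 7.97, 3.57-fold higher. Abcb11, the bile salt export pump, read 6.49 and 7.89, and Slc10a1, the uptake carrier NTCP, read 8.34 and 9.62. Akr1d1, a bile acid reductase, was 2.07-fold higher. For the 4 higher genes the WT differences were 1.81, 1.32, 1.13 and 0.98, close to the KO differences of 1.83, 1.40, 1.28 and 1.05. Among 28 drug-metabolising enzymes 4 were 2-fold higher, Cyp2b10, Sult2a8, Sult1a1 and Aox3, and 1 was lower, Fmo5 (9.05 and 7.80). Cyp2b and Sult2a genes have near-identical relatives, and their probe sets may read more than 1 of them.

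Secreted plasma proteins moved in different directions. Hamp, the iron hormone hepcidin, read 9.56 and 11.67, 4.32-fold higher, although its upstream co-receptor Hjv was among the lowest genes. Crp, C-reactive protein, read 10.15 and 11.27. These were the 2 acute phase genes at 2-fold among 27, and that list had a median of 0.11. Complement and coagulation proteins were lower on balance, with 22 of 30 below 0, 5 at 1.5-fold lower, 0 at 1.5-fold higher and a median of -0.26. Pros1, the anticoagulant protein S, was 2.45-fold lower (7.51 and 6.21), Masp1, a lectin pathway protease, read 9.52 and 8.70, and C2 read 9.71 and 8.98. The 24 hepatocyte identity genes had a median of 0.03 and 0 at 2-fold, and their largest differences were at Prox1 (7.70 and 6.73) and Foxa1 (8.41 and 9.19), both liver transcription factors.

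Inflammatory genes divided by type. Of 28 detected chemokine, cytokine and NF-kB genes, 6 were 2-fold higher and 0 lower, with a median of 0.21. Il23a, a cytokine subunit, was below background in KO control (4.07) and read 6.05 with fructose, at least 2.43-fold higher. In WT, where its control was also below background, it was at least 20.7-fold higher. Cxcl2, a neutrophil chemokine, was at least 2.35-fold higher from below background (4.28), and Ccl5 read 8.36 and 9.96. Tnf read 5.25 and 5.91. Beside these values, 10 of 14 detected Kupffer cell and macrophage genes were above 0 and 4 below, with a median of 0.12. Cd14 read 10.65 and 11.20, and Lyz2 read 4.97 and 5.44. The Kupffer marker Clec4f read 5.46 and 5.47 and Timd4 read 5.13 and 5.26, while Cd5l read 6.06 and 5.28 and C1qb 6.70 and 6.25. The part of non-hepatocyte cells in these differences was not tested.

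Interferon-stimulated genes were lower on balance. Of 37 detected members 29 were below 0, 4 were 2-fold lower, 12 were 1.5-fold lower and 1 was 1.5-fold higher, with a median of -0.30 in KO and -0.53 in WT. Ifi27l2b read 10.10 and 8.42, a difference of -1.68 in KO and -3.27 in WT. Irf7, the factor that amplifies the interferon response, read 10.80 and 9.80, and Oas1g, an oligoadenylate synthetase with close relatives, read 7.20 and 6.12. Rsad2, the antiviral enzyme viperin, was the member at 1.5-fold higher (10.07 and 10.92). The interferon-stimulated response element (ISRE), also searched on both strands and named only, was in 2.98% of all promoters, in 267 of 8500 detected genes (3.14%) and in 13 of 29 genes of this list with a promoter (44.8%). The 267 genes had a median of -0.04. Of the 2-fold higher genes with a promoter 7 of 138 held the ISRE (5.07%), and of the 2-fold lower genes 2 of 93 (2.15%). Shown for contrast are 2 lower genes and Rsad2, at chr5:120887614-120887661 (Oas1g, -), chr8:61928004-61928086 (Ddx60, +) and chr12:26456533-26456602 (Rsad2, -), with all matches in capitals.
Oas1g: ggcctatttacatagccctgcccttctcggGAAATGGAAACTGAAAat
Ddx60: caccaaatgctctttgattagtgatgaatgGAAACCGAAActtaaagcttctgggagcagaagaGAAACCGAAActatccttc
Rsad2: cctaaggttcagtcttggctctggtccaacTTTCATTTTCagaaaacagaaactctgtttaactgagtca
Ddx60, a helicase of RNA sensing, differed by -0.76, and Rsad2, by 0.84, although all 3 genes hold the motif.

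Lysosomal enzymes were the list with the lowest median. This list was written after the data were seen. Of 46 detected hydrolases and proteases, 41 were below 0, 15 were 1.5-fold lower, 5 were 2-fold lower and 0 were 1.5-fold higher, and the median was -0.47 in KO and -0.56 in WT. Arsg, a heparan sulfatase, read 6.56 and 5.02, 2.91-fold lower, and Sgsh, which acts on the same polymer, read 7.82 and 6.33, 2.81-fold lower. Siae, a sialic acid esterase, read 8.31 and 7.04, Asah1, the acid ceramidase, 8.91 and 7.67, and Ppt1, a depalmitoylating enzyme, 9.14 and 8.07. Tpp1, a tripeptidyl peptidase, read 11.23 and 10.58. The palindrome TCACGTGA, the core of the lysosomal control element CLEAR, was searched after these values were seen. It was in 4 of 40 of these genes with a promoter (10%), against 153 of 8500 detected genes (1.8%), whose median was -0.01, and 0.785% of all promoters. The 4 were the proteases Ctsd (-0.57), Ctsa (-0.51) and Dpp7 (-0.84) and the galactosidase Gla (-0.59). Among all 2-fold lower genes with a promoter 1 of 93 held the palindrome (1.08%), and among the 2-fold higher genes 0 of 138.

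Sugar activation for glycosylation, also listed after the data were seen, had a median of -0.00 over 37 genes with opposite ends. Gfpt1, which commits fructose 6-phosphate to the hexosamine pathway, read 6.88 and 8.74, 3.63-fold higher, and Uap1, which makes UDP-GlcNAc, read 7.27 and 8.14. Uap1l1, a relative of Uap1 of uncertain role, read 7.99 and 6.25, 3.34-fold lower. Of the list, 18 genes were above 0 and 19 below. Among the assembly genes, Alg8 (9.26 and 8.40) was lower and Alg12 (8.49 and 9.02) higher. The oligosaccharyltransferase subunit Tusc3 (6.75 and 5.87) was lower and its paralog Magt1 (8.04 and 8.62) higher.

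Immediate early genes and dual-specificity phosphatases were higher on balance, with 13 of 36 at 1.5-fold higher, 0 at 1.5-fold lower and a median of 0.40. Dusp5, a nuclear phosphatase of ERK, read 7.78 and 8.78, 2.01-fold higher, and Jun read 9.91 and 10.60. Genes responsive to cAMP and glucocorticoids had a median of 0.42 over 21, with 4 at 2-fold. All 4 are shared with other lists. Tat and Pck1 are also counted in the gluconeogenic list, Tat in amino acid catabolism, and Per1 and Nfil3 in the clock list. Among the 17 clock genes Per1 (7.74 and 9.18) and Nfil3 (6.99 and 8.04) were 2-fold higher, and Bhlhe41, a clock repressor, read 5.48 and 6.33. Insulin and growth signalling held 0 of 28 at 2-fold, with Hbegf, an EGF receptor ligand, at 6.58 and 7.41 and Erbb3, a receptor of the same family, at 8.70 and 7.87. Among 28 cell cycle genes, E2f8 and Mcm6, a replicative helicase subunit, were 2-fold higher, whereas Mcm2, of the same helicase, read 6.10 and 5.36.

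Structural and epithelial genes differed in sets. Of 37 detected YAP targets and actin-linked genes, 5 were 2-fold lower and 0 higher, with a median of -0.13. Tpm2, a tropomyosin, read 6.92 and 5.47, 2.74-fold lower. Fblim1, a filamin-binding adaptor, read 7.09 and 5.66, 2.71-fold lower, and the calponin Cnn2 read 6.53 and 5.30. S100a6 and Anxa3, both calcium-binding proteins, were the other 2. Ankrd1, a classical YAP target, was higher in KO (10.78 and 11.41) and lower in WT (-0.42). Of 23 detected junction proteins 17 were below 0 and 6 above, 0 reached 2-fold, and the median was -0.29. Marveld2, tricellulin, read 7.88 and 6.91, whereas the claudin Cldn4 read 10.12 and 10.92. Of 15 detected brush-border genes 3 were 2-fold higher (Muc13, Car2 and Atp1b1) and 2 lower (Cdh17 and Vil1). Squamous-type genes had a median of 0.80 over 15 detected members, with 5 at 2-fold as read, of which Sprr1b has a bound under 2-fold. The median fell to 0.10 when members below background on both arrays were kept in, so the value describes the detected members alone. Foxn1, the hair and thymus factor, read 5.14 and 6.95, 3.53-fold higher, Aloxe3, an epidermal lipoxygenase, read 5.26 and 7.12, 3.62-fold higher, and Sprr1b was at least 1.73-fold higher from below background. Sox9, a biliary and progenitor factor, read 9.39 and 10.21, while 5 defining cholangiocyte markers (Krt7, Krt19, Epcam, Cldn7 and Cftr) were below background on both arrays and summed to 68.9 and 66.0. In a wider cholangiocyte list, 5 of 12 measured members were detected, among them Cldn4 and Cldn3 (10.84 and 10.68), and Bicc1 was below background with fructose.

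Lists of core cell functions had medians near 0. The median was -0.05 over 46 subunits of oxidative phosphorylation and -0.12 over 31 cytosolic ribosomal proteins, with 0 at 2-fold in both lists, although 29 of the 31 ribosomal genes were below 0. The 12 housekeeping genes had a median of -0.03, with Gapdh at 10.82 and 10.94 and Actb at 9.41 and 9.55. In that list Tfrc, the transferrin receptor (6.95 and 6.23), and Gusb, a lysosomal enzyme (8.84 and 8.22), were 1.5-fold lower, and Polr2a, the largest subunit of RNA polymerase II (7.06 and 7.67), was 1.5-fold higher.

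Set beside WT, most of the 2-fold genes of KO went the same way in WT. Of 180 higher genes detected in both genotypes, 138 were 2-fold higher in WT, where 3.1% of all detected genes were (76.7% of the KO genes and 42.7% of the 323 in WT), 26 lay between 1.5-fold and 2-fold (9.46% of WT genes were at least 1.5-fold higher), 9 lay below 1.5-fold and 7 were lower in WT. Their medians were 1.30 in KO and 1.40 in WT, and 99 of the 180 had the larger difference in WT. Of 126 lower genes, 107 were 2-fold lower in WT, where 3.01% of all detected genes were (84.9% of the KO genes and 33.4% of the 320 in WT), 16 lay between 1.5-fold and 2-fold (10.8% of WT genes were at least 1.5-fold lower), 3 below, and 0 were higher in WT. Here the medians were -1.20 and -1.34, and 89 had the larger difference in WT. Because the members were chosen by their KO difference, their median in KO is high by that choice.

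**Figure D5:**
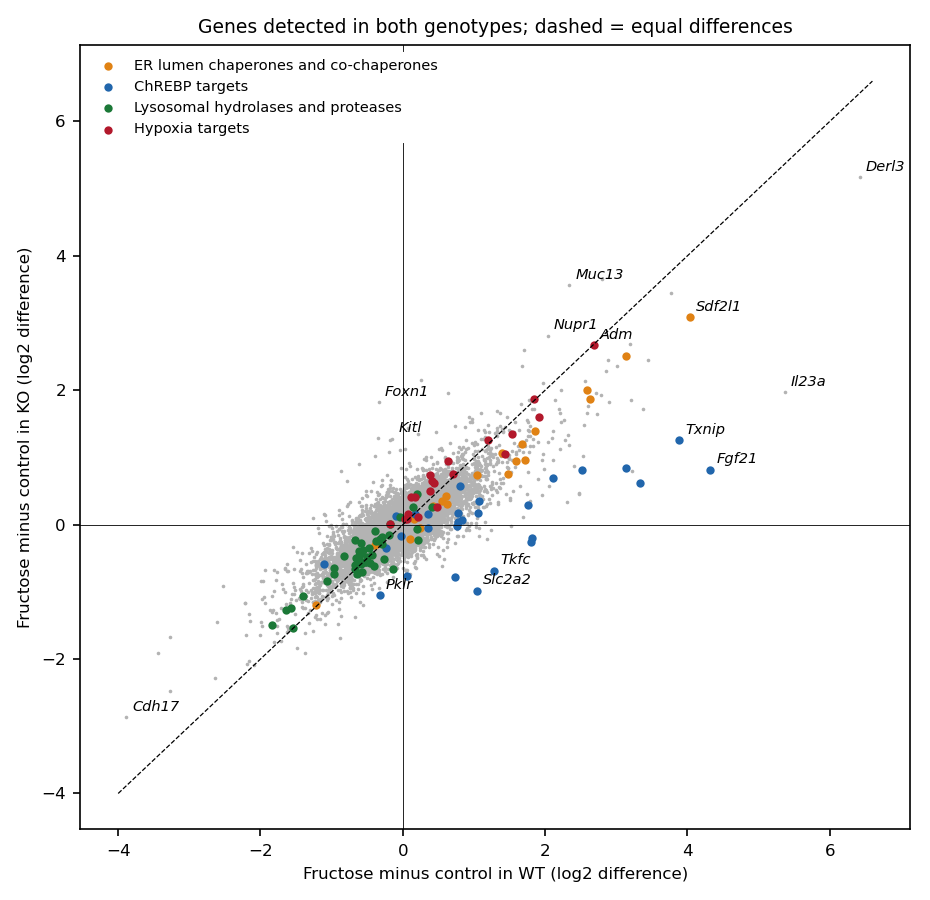
Fructose minus control difference (log2, 1 array each side) in KO on the vertical axis against WT on the horizontal axis for genes detected in both genotypes; the dashed line marks equal differences and 4 lists are coloured. ER chaperones lie mostly under the line on its right side, hypoxia targets near it and lysosomal enzymes at lower left. ChREBP targets are spread, with Txnip and Fgf21 far to the right of the line and Gpam to its left. Slc2a2 and Tkfc lie below 0 in KO and above 0 in WT.

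The genes named next are among those at 2-fold in KO whose difference went furthest beyond that in WT. Genes that differed far more in WT, such as Txnip (1.26 in KO and 3.88 in WT), are left out by this choice. Among those 2-fold higher in KO, the furthest above the WT difference was Foxn1 (1.82 in KO and, with WT fructose below background, -0.34 in WT), followed by Krtap4-16 (2.15 and 0.25). Duox2, an epithelial peroxide-producing oxidase, differed by 1.29 and -0.34. Kitl, the stem cell factor, read 5.80 and 7.08 in KO and differed by -0.15 in WT. Avpr1a, the vasopressin receptor of hepatocytes, read 6.84 and 8.27 in KO and differed by 0.07 in WT, and Ntn4, a basement membrane netrin, differed by 1.02 and -0.39. Among those 2-fold lower in KO, Pklr stood furthest below WT (-1.05 in KO and -0.32 in WT). All the lower genes named here were also lower with fructose in WT. Nt5e, the ecto-enzyme CD73, differed by -1.48 in KO and -0.91 in WT, and Agtr1a, the angiotensin II receptor, by -1.36 and -0.87. Epas1, the oxygen-regulated factor HIF-2 alpha, differed by -1.01 and -0.56, and Dhcr7 by -1.15 and -0.61.

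The lists hold 74 of the 181 higher genes (40.9%) and 29 of the 127 lower genes (22.8%), against 9.66% of all detected genes. Because the lists were chosen with earlier results of these data known, the excess over that share is not independent of the choice. Most of the higher and most of the lower genes fall outside the lists. Of the 308 genes at 2-fold in either direction (2.86%), 303 rest on 1 probe set. For 4 of the other 5 all probe sets went the same way, and the exception was Spatc1l, with probe sets at -2.06 and 0.05.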

How the data were processed

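Expression was measured in primary hepatocytes of WT and Chrebp-KO mice with and without fructose, 1 array per group. The labels give 400 ng of RNA for amplification and a 1-colour array that covers whole transcripts. The authors deposited log2 expression values of probe sets, and the submitters' processing notes name RMA (robust multi-array average) with R 3.4.0. RMA makes the distributions of the arrays alike, so a shift shared by all genes cannot be seen. It keeps no reads or spot counts, so depth is unknown and precision is limited by how few arrays there are. For the array's annotation and genome build, no version is given in the sources used here.

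Of 41345 probe sets, 23521 had 1 gene symbol in the platform's gene table, 1814 had several and 16010 were unnamed here, and 23328 of the single-gene ones were matched to RefSeq names. Probe sets of a gene were averaged on the log2 scale (1082 genes had more than 1). Genes of families with similar copies may share probes. The WT and KO comparisons share no array. Python 3.11.15 was used with numpy 2.4.6, pandas 2.3.3, statsmodels 0.14.6 (loess with span 0.3) and matplotlib 3.10.9. Promoters came from a RefSeq table of the GRCm38.p6 build, with 32851 windows of 27025 genes. The cAMP response element (CRE) and E2F motifs were searched in the same way. They were in 2.98% and 1.47% of detected genes with a promoter. Of the 2-fold higher genes 1.45% and 2.9% held them, and of the 2-fold lower genes 2.15% and 0%.

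The members and gene lists were chosen with earlier results of these data known. Of the 49 lists, 2 (lysosomal enzymes, and hexosamine and N-glycan genes) were added last, after these values were seen, as was the CLEAR motif. Of 1323 list members, 1217 had a value, for 46 all probe sets named several genes, and 60 were not analysed here. Named genes were Mlxipl, the 15 largest differences in KO each way among detected genes (predicted genes, small RNAs, receptors of smell and immune receptor segments left out), every list member at 2-fold and otherwise the 4 largest of a list, the 8 genes each way at 2-fold in KO and furthest from WT, and genes at 1.5-fold in opposite directions. Not every gene of this set is mentioned above. Other list members, markers and motif genes were named after their values were seen. Alternatives were median centring, repeated quantile normalization, loess, no filter and a stricter filter on dim genes, 3-fold and 1.5-fold as thresholds, the brightest probe set, and the mean in place of the median. The 2-fold threshold was also tried on simulated differences, with shifts set above it and the spread of olfactory receptor genes. Its outcome followed from those settings, so it does not check the differences reported here.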

Additional observations from a re-analysis of the deposited data

Results flagged for a closer look

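Among detected genes, 6 of the named ones differed at least 1.5-fold in opposite directions between the genotypes. The difference between genotypes was not tested, because each group is 1 array. Slc2a2, the transporter GLUT2, read 7.53 and 6.55 in KO (-0.98) against a WT difference of 1.04, so KO minus WT was -2.02. Tkfc, the triokinase of fructolysis, differed by -0.68 in KO and 1.28 in WT, with KO minus WT at -1.96. Mttp, the lipid loading protein of VLDL assembly, differed by -0.78 and 0.73, with KO minus WT at -1.505. All 3 belong to the textbook ChREBP targets.

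The other 3 are epithelial genes that were higher in KO and lower in WT. Cldn4, a tight junction claudin, differed by 0.79 in KO and -0.87 in WT, with KO minus WT at 1.66. Ivl, the squamous envelope protein involucrin, differed by 0.90 and -0.62, with KO minus WT at 1.52. Itga2, a collagen-binding integrin subunit, differed by 0.65 and -0.78, with KO minus WT at 1.43.

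Outside the named genes, the 16010 probe sets without a listed gene held 4659 above background on at least 1 KO array. Of these, 86 were at least 2-fold higher and 71 at least 2-fold lower with fructose in KO. The 1814 probe sets of several genes held 822 above background, with 9 higher and 6 lower. For comparison, of the 10752 detected genes 181 (1.68%) were 2-fold higher and 127 (1.18%) 2-fold lower.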

How the results depend on the processing

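The counts of 181 higher and 127 lower genes moved by less than 1.5 times under median centring, repeated quantile normalization, loess, no filter, a stricter filter and the brightest probe set. At 1.5-fold they were 657 and 618, and at 3-fold 47 and 18. A list median is called moved past 0.1, and 47 lists had at least 5 detected members. RMA had already made the array distributions alike, so centring and repeated quantile normalization could change little. Centring, quantile normalization and loess moved 0 of the 47 list medians. Over 224 named genes the largest shifts were 0.0136, 0.0737 and 0.0156, and 3, 5 and 3 crossed 2-fold. With the brightest probe set the largest was 0.482, and 2 crossed. Without the filter, medians were 0.50 for hypoxia targets, 0.0784 for the cell cycle, 0.10 for squamous-type genes and -0.10 for cholangiocyte markers. With the stricter filter they were 0.856 for ER chaperones, 0.31 for chemokines and NF-kB genes, 0.48 for the cell cycle, -0.17 for sinusoidal markers and 0.79 for cholangiocyte markers. With the brightest probe set, triglyceride and VLDL genes stood at 0.0907. The mean in place of the median gave 0.65 for ER-associated degradation, 0.67 for integrated stress, 0.78 for hypoxia, -0.12 for fructolysis, 0.52 for gluconeogenesis, 0.14 for glycogen, 0.10 for triglyceride and VLDL genes, 0.23 for bile acids, 0.64 for chemokines, 0.55 for cAMP and glucocorticoid genes, 0.50 for hepatokines, -0.24 for YAP targets and 0.90 for squamous-type genes. Mean and median thus differ in sign for fructolysis and for triglyceride genes. The cause of these shifts was not tested. No paired analysis was possible because each group is 1 array, and for the same reason no replicate could be left out. Near background, differences are compressed, so folds of dim genes are bounds.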
